A study of Mus musculus with 12 samples.

Results

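The clustered protocadherin genes were taken as every gene on the array whose platform symbol starts with Pcdha, Pcdhb or Pcdhg. The rule found 20 genes among the 19505 with a named probe set, called a probe here. All 20 belong to the beta cluster, Pcdhb1 to Pcdhb20, each measured by 1 probe. The rule found 0 genes of the alpha cluster and 0 of the gamma cluster, which were not analysed here, so the 3 clusters could not be compared. RefSeq lists 58 clustered protocadherin genes in GRCm38.p6, of which 14 are alpha, 22 beta and 22 gamma. The 20 measured genes matched it by gene ID and symbol, lie on chromosome 18, and their numbers run in order along it.

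The samples are described as trigeminal ganglion (TG) neurons of the mouse, which carry sensation from the face and mouth, in primary culture on laminin. Markers of other cell types were also high on some arrays, as given below. The cultures received miR-21, miR-34a or miR-324 by transfection, or scramble miRNAs as the control. RNA of each of the 4 groups was hybridised to 3 Clariom S Mouse arrays. The labels give no strain, age, dose or time after transfection, and do not name the arm of any miRNA. Whether arrays of 1 group stand for separate cultures or animals is not stated, and the p-values therefore reflect the spread between these samples alone, part of which may be technical. Scramble 1 and 2 and miR-34a 1 and 2 share 1 label suffix, called A here, and scramble 3 and miR-324 2 share another, called B. The other 6 arrays have none, and the labels do not say what a suffix stands for.

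Clustered protocadherins are cadherin-like adhesion proteins of the cell surface that act mostly in neurons. The genes stand in tandem, each with its own promoter, and each neuron switches on a few of them through promoter choice that depends on CTCF, cohesin and DNA methylation. The proteins of a cell form mixed assemblies that bind only to assemblies of the same makeup, which lets a neuron tell its own branches from those of others. Beta genes consist of a single exon and, unlike alpha and gamma genes, do not join to shared constant exons, so beta proteins lack the common intracellular tail. Neighbouring beta genes are close copies in sequence, so a probe may also take up transcripts of its neighbours, and the values of single members are uncertain to that extent.

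Mature sequences of the miRNAs that name the groups are shown. Which arm was transfected is not stated, and the groups also differed in label suffixes and cell type markers. The sequences are those of RefSeq (GRCm38.p6), with the seed, bases 2 to 8, in capitals. For miR-324 both arms are given. The other 2 miRNAs are shown by the arm that is usually the more abundant. The 4 seeds all differ.
mmu-miR-21a-5p, chr11:86584120-86584141, minus strand: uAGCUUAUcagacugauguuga
mmu-miR-34a-5p, chr4:150068473-150068494, plus strand: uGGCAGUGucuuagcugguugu
mmu-miR-324-5p, chr11:70012060-70012082, plus strand: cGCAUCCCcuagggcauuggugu
mmu-miR-324-3p, chr11:70012095-70012114, plus strand: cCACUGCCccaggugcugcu

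The arrays differed in cell type markers as well as in the miRNA. Pan-neuronal genes, of which 28 of 29 were measured, had a median log2 signal of 10.72, 10.95 and 11.26 on the miR-21 arrays. It was 13.28, 13.16 and 9.22 for miR-34a 1, 2 and 3, was 9.40, 11.95 and 11.80 for miR-324 1, 2 and 4, and was 12.88, 13.34 and 12.16 for scramble 1, 2 and 3. All were far above the signal of receptor genes that neurons of this kind are not known to use, described below. The 2 lowest arrays, miR-34a 3 and miR-324 1, had high endothelial markers, with medians of 12.85 and 13.82 over 13 measured genes. Endothelial medians were 12.15 and 12.37 in miR-324 2 and 4 and 11.92 in scramble 3, and 8.77 to 9.98 in the other 7 arrays. Myelinating Schwann cell markers, 12 measured, had medians of 11.53 to 11.63 in miR-21 and of 7.71 to 8.56 in scramble. Pituitary hormone genes, all 7 measured, had medians of 6.16 to 7.41 in the miR-324 arrays and scramble 3, and 3.67 to 4.24 elsewhere. In RNA from a whole culture, fewer cells of a type and less RNA per cell cannot be told apart.

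Of the 20 Pcdhb genes, 11 stood above the floor of the array. The floor was the 95th percentile of the mean signals of 1410 probes for olfactory and vomeronasal receptors, which was 5.02 on the log2 scale, against a median of 3.73 for those probes. The 11 genes were Pcdhb2, Pcdhb4, Pcdhb5, Pcdhb8, Pcdhb9, Pcdhb14, Pcdhb15, Pcdhb16, Pcdhb17, Pcdhb18 and Pcdhb20, and 9 of them were above the floor on every array. Of all genes, each taken by its brightest probe, 62.0% had a mean above the floor. Pcdhb15, with a mean of 5.20, lay just above it, and Pcdhb11, with 4.72, just below. Only 7 of the 20 had a mean above that of the median gene, 6.12. At or near the floor a probe understates differences, which applies to Pcdhb1, Pcdhb3, Pcdhb6, Pcdhb7, Pcdhb10, Pcdhb11, Pcdhb12, Pcdhb13 and Pcdhb19.

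The 3 brightest members were Pcdhb4, Pcdhb17 and Pcdhb20, probe signals that do not rank transcript abundance. Pcdhb4 had log2 signals of 7.30, 6.68 and 7.37 in miR-21 cells, 7.03, 6.92 and 7.92 in miR-34a cells, 7.37, 7.68 and 7.60 in miR-324 cells, and 7.16, 7.24 and 6.99 in scramble cells. Its miR-324 values all exceeded those of scramble, and its miR-21 and miR-34a values overlapped scramble. Pcdhb17 had 6.42, 6.45 and 6.61 in miR-21 cells, 6.98, 6.85 and 7.74 in miR-34a cells, 7.36, 7.00 and 6.90 in miR-324 cells, and 6.93, 7.26 and 6.76 in scramble cells. Its 3 miR-21 values lay below all 9 other values.

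Over the 12 arrays the members varied about as much as other genes. The median range of a member was 1.57, against 1.33 for all genes, each taken by its brightest probe. A range over 2 was found for 3 members, against 18.0% of all genes. The median standard deviation (SD) of a member within groups was 0.374, and that of all probes 0.367. The 3 widest ranges were those of Pcdhb2 (2.84), Pcdhb13 (2.16) and Pcdhb9 (2.02). The first and second of these came from miR-21 2, which had 8.75 for Pcdhb2 and 5.42 for Pcdhb13. The other 11 arrays had 5.91 to 7.69 for Pcdhb2 and 3.26 to 4.45 for Pcdhb13, so a single array set these ranges.

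**Figure D1:**
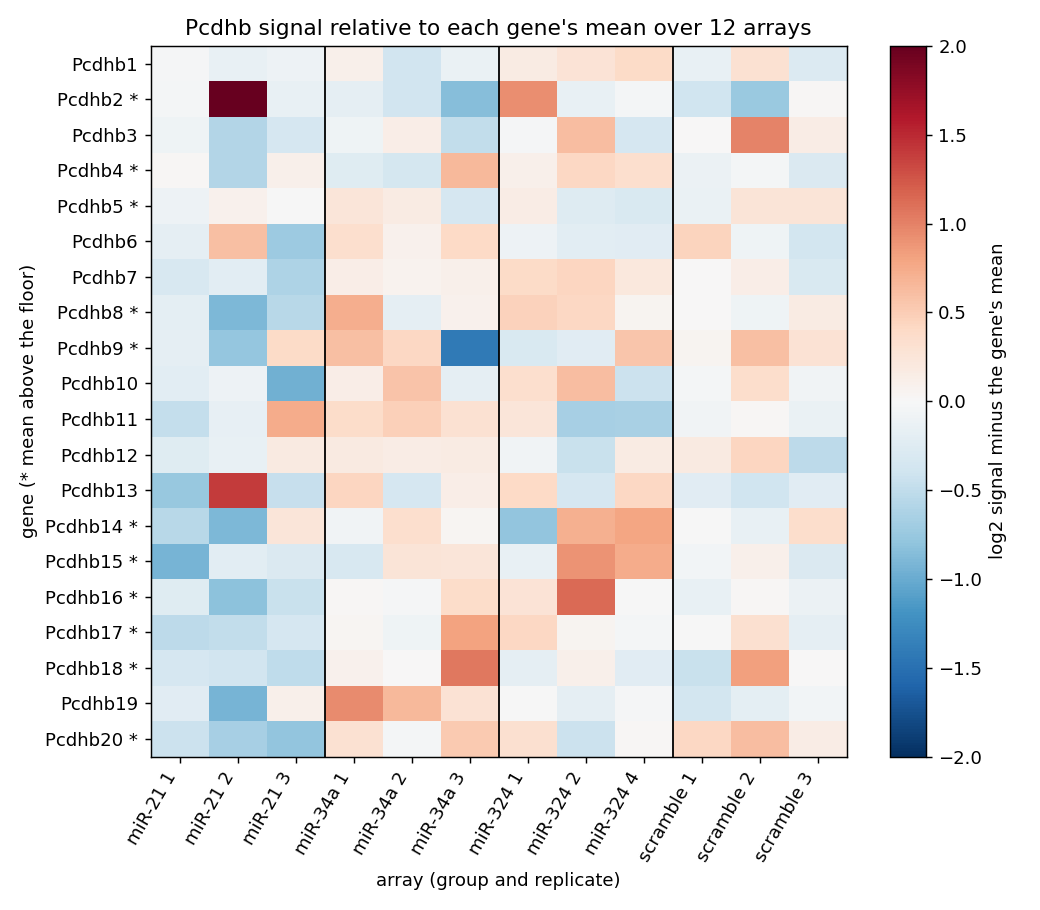
Log2 signal of the 20 Pcdhb genes on each of the 12 arrays, shown as the difference from the gene's own mean over the 12 arrays. Columns are arrays ordered by group (miR-21, miR-34a, miR-324, scramble), rows are genes in order along the cluster, and a star marks the 11 genes above the floor. Most cells of the miR-21 columns are below 0, and the darkest positive cells are Pcdhb2 and Pcdhb13 in miR-21 2, with signals of 8.75 and 5.42.

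The protocadherin signals of the cultures were compared for each miRNA against scramble with limma over all 19572 named probes. The threshold was a Benjamini-Hochberg adjusted p under 0.05. RNA of whole cultures cannot show whether the neurons themselves changed their transcripts. The 3 comparisons share the scramble arrays and are not independent of each other. No member passed in any of them.

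In miR-21 cells most Pcdhb genes had lower signals than in scramble cells, by amounts that did not pass the test for any single gene. The difference was below 0 for 17 of the 20, against 38.3% of all named probes, and the median difference was -0.36, against 0.13 over all probes. Of the 20, 0 were called by limma, against 1.04% of all probes (204 genes), and 2 had an unadjusted p under 0.05, against 16.6%. For 6 members every miR-21 array lay below every scramble array, against 8.75% of probes. These were Pcdhb3, Pcdhb8, Pcdhb10, Pcdhb16, Pcdhb17 and Pcdhb20. For 0 members did every miR-21 array lie above scramble, against 16.9% of probes.

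Pcdhb20, the last of the 20 along the cluster, had 6.41, 6.18 and 6.05 in miR-21 cells, against 7.26, 7.46 and 6.99 in scramble cells. The miR-21 values lay below every other value of the gene except that of miR-324 2, 6.41, which equals the highest of them. The mean was 6.21 ± 0.18 in miR-21 cells and 7.24 ± 0.24 in scramble cells (SD, n = 3 each). The difference was -1.02 ± 0.25 (standard error, SE, of the fit, with a 95% interval of -1.57 to -0.47), and its adjusted p by limma was 0.076. The adjusted p was under the threshold in 4 of 11 other settings and in 0 of 6 fits that left out 1 array, where it ran from 0.090 to 0.20. Those 4 settings called 373 to 2390 of all 19572 probes, against 204 in the main fit. Of the 4, a fixed block for the label suffix compares these groups only indirectly, as given below. The adjusted p was 0.26 with the label number as a block.

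Pcdhb3 and Pcdhb8 had the next smallest p-values. Pcdhb3 had 4.14, 3.64 and 3.89 in miR-21 cells, against 4.23, 5.21 and 4.37 in scramble cells. The groups do not overlap, but its group means lie under the floor and 1 scramble array stands well above the other two. The difference was -0.71 ± 0.32 (SE), with an adjusted p by limma of 0.29. It was -0.41 without scramble 2 and -0.04 with a fixed block for the label suffix, an indirect comparison as given below. Pcdhb8 had 5.81, 5.11 and 5.45 in miR-21 cells, against 6.01, 5.92 and 6.17 in scramble cells. Its difference was -0.58 ± 0.27 (SE), with an adjusted p by limma of 0.31, and the nearest values of the groups, 5.81 and 5.92, almost touch.

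Pcdhb17 differed by -0.49 ± 0.26 (SE), with an adjusted p by limma of 0.37, and Pcdhb16 by -0.42 ± 0.29 with one of 0.48. The 3 members with a difference above 0 were Pcdhb2, Pcdhb11 and Pcdhb13. Pcdhb2, singled out after its values were seen, had 6.72, 8.75 and 6.60 in miR-21 cells, against 6.36, 6.01 and 6.78 in scramble cells. It averaged 7.36 ± 1.21 in miR-21 cells and 6.38 ± 0.39 in scramble cells (SD, n = 3 each), and the difference of 0.97 ± 0.51 (SE, adjusted p by limma 0.35) rests on 1 array.

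The miR-21 arrays also had the lower pan-neuronal level, 10.72 to 11.26 against 12.16 to 13.34 in scramble, and the higher Schwann cell markers given above. Macrophage markers, 15 measured, had medians of 5.11 to 5.40 in miR-21, against 7.90, 7.85 and 4.94 in scramble 1, 2 and 3. The part of Schwann cell and macrophage markers in the protocadherin differences was not tested. With the pan-neuronal level as a covariate the median difference of the 20 was -0.20 in place of -0.36. In that fit 1 member was called, Pcdhb20, at -1.23 with an adjusted p by limma of 0.038. The fit called 373 of all 19572 probes, against 204 in the main one. With a fixed block for the label suffix the median was -0.15, and Pcdhb20, at -1.47 with an adjusted p of 0.022, was again the 1 member called. No miR-21 array carries a label suffix and every scramble array does, so miR-21 and the lack of a suffix cannot be told apart within these groups.

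**Figure D2:**
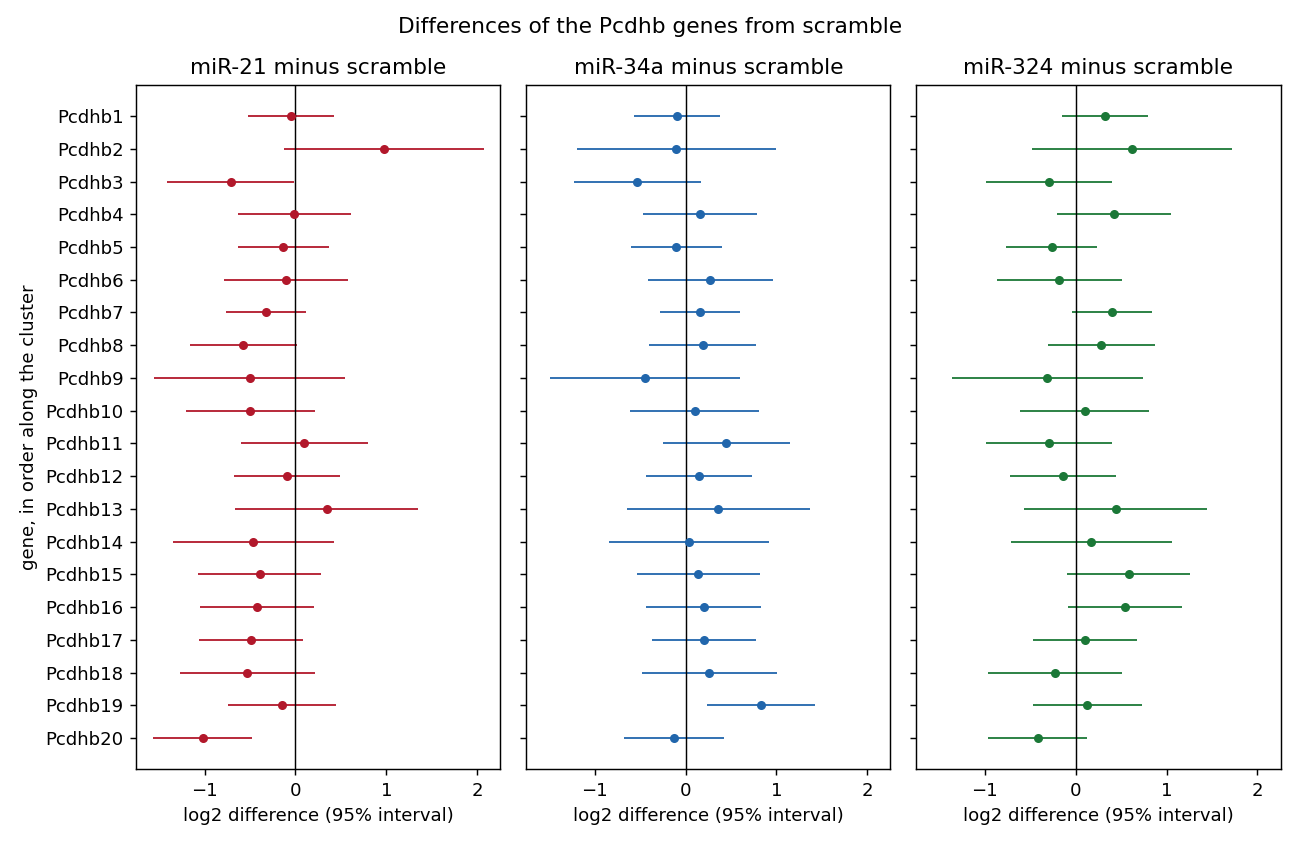
Log2 difference of each Pcdhb gene from scramble (points) with the 95% interval of the limma fit (lines), for miR-21, miR-34a and miR-324 from left to right. Genes run from the top in order along the cluster. In miR-21 cells 17 of 20 points lie left of 0, and the interval of Pcdhb20, -1.57 to -0.47, is the farthest from it.

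In miR-34a cells the Pcdhb genes lay close to their scramble signals. Of the 20, 0 were called by limma, against 0.0% of all named probes (0 genes), and 1 had an unadjusted p under 0.05, against 1.46% of probes (286 genes). The median difference was 0.15, against 0.04 over all probes, and 6 of 20 were below 0, against 44.0%. Every miR-34a array lay above every scramble array for 2 members, Pcdhb11 and Pcdhb19, against 3.49% of probes, and below for 0, against 2.31%.

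Pcdhb19, near the far end of the cluster, had 4.98, 4.68 and 4.32 in miR-34a cells, against 3.67, 3.84 and 3.98 in scramble cells. The groups do not overlap, and its miR-21 and miR-324 values, 3.10 to 4.13, lay below those of miR-34a too. The mean was 4.66 ± 0.33 in miR-34a cells and 3.83 ± 0.16 in scramble cells (SD, n = 3 each), both under the floor of the array. The difference was 0.83 ± 0.27 (SE, 95% interval 0.23 to 1.43), with an unadjusted p of 0.010 and an adjusted p by limma of 1.00. Among the arrays with suffix A alone, 2 against 2, it was 1.08, the largest of any member, and it was not called there.

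Pcdhb3 had 4.14, 4.35 and 3.73 in miR-34a cells, against 4.23, 5.21 and 4.37 in scramble cells. Its difference was -0.53 ± 0.32 (SE), or -0.23 without scramble 2, and the groups overlap. Pcdhb11 had 5.09, 5.19 and 5.03 in miR-34a cells, against 4.65, 4.74 and 4.58 in scramble cells. Its groups do not overlap and are each tight, yet the difference of 0.45 ± 0.32 (SE) has an unadjusted p of 0.19 by limma, since the gene varied more in the miR-21 and miR-324 groups, whose arrays ranged from 4.06 to 5.46. The median difference of the 20 was 0.05 within suffix A, and -0.10 over the 7 members brighter than the median probe.

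In miR-324 cells the Pcdhb genes were not shifted to 1 side. Of the 20, 0 were called by limma, against 0.0% of all named probes (0 genes), and 0 had an unadjusted p under 0.05, against 14.7% of probes (2877 genes). The median difference was 0.12, against 0.09 over all probes, and 8 of 20 were below 0, against 41.5%. Every miR-324 array lay above every scramble array for 2 members, Pcdhb4 and Pcdhb7, against 12.6% of probes, and below for 0, against 7.3%.

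Pcdhb7 had 4.05, 4.11 and 3.88 in miR-324 cells, against 3.68, 3.80 and 3.37 in scramble cells, all under the floor of the array. Its groups lie close together without overlap, and the difference was 0.40 ± 0.20 (SE, 95% interval -0.05 to 0.84), with an adjusted p by limma of 0.37. With quantile normalization again it was 0.20. The olfactory and vomeronasal receptor probes were higher too, with medians of 4.02, 3.84 and 3.89 in miR-324, against 3.51, 3.56 and 3.73 in scramble. Their part in the Pcdhb7 difference was not tested. Pcdhb16 had 6.89, 7.76 and 6.61 in miR-324 cells, against 6.47, 6.65 and 6.51 in scramble cells. Its difference of 0.54 ± 0.29 (SE, adjusted p by limma 0.39) owes most to miR-324 2. The value without that array was 0.21.

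Pcdhb15 had 5.05, 6.10 and 5.94 in miR-324 cells, against 5.14, 5.30 and 4.90 in scramble cells. Its values in miR-324 2 and 4 stand above scramble and that in miR-324 1 does not, and the difference was 0.58 ± 0.31 (SE, adjusted p by limma 0.39). It was 0.91 without miR-324 1 and 0.38 without miR-324 2. Pcdhb20 had 7.17, 6.41 and 6.87 in miR-324 cells, and its difference of -0.42 ± 0.25 (SE) has an adjusted p by limma of 0.43. Without miR-324 2 the difference was -0.22. The 1 pair of arrays with suffix B, miR-324 2 and scramble 3, allows values and no test. In it 13 members were higher and 7 lower in miR-324, with a median difference of 0.20, and Pcdhb16 and Pcdhb15 differed most, by 1.25 and 1.20.

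**Figure D3:**
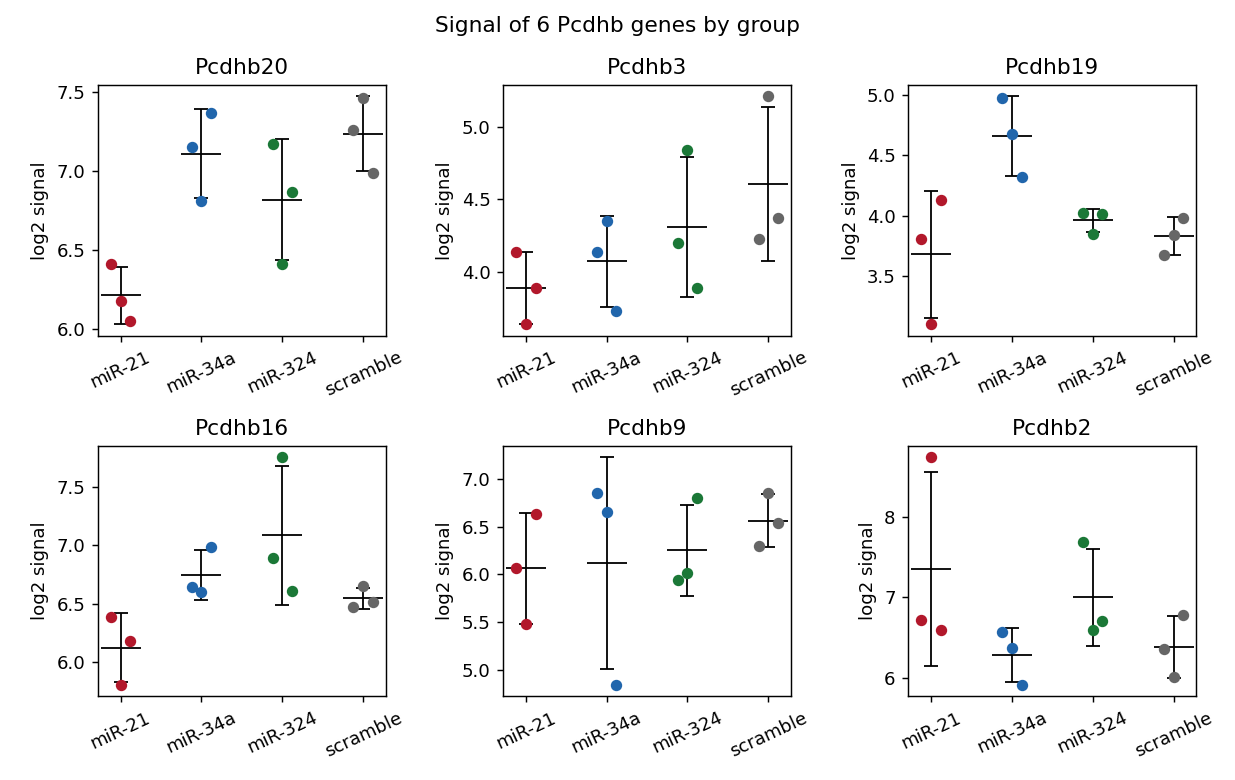
Log2 signal of 6 Pcdhb genes in each group (points are the 3 arrays, the long bar is the mean and the whiskers are ± 1 SD), each panel on its own axis. Pcdhb20 is lowest in the miR-21 arrays (6.05 to 6.41), Pcdhb19 highest in the miR-34a arrays (4.32 to 4.98), and the spread of Pcdhb2 in miR-21 and of Pcdhb9 in miR-34a comes from 1 array each.

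The groups were also compared with each other. These comparisons reuse the same arrays and are not independent of those with scramble. Schwann cell markers had medians of 11.53 to 11.63 in miR-21, 8.26 to 9.86 in miR-34a and 8.2 to 8.4 in miR-324. Their part in the differences below was not tested. Between miR-34a and miR-21 cells the median difference of the 20 was 0.43, against -0.08 over all named probes, and 0 members were called by limma, against 0.158% of probes (31 genes). The difference was below 0 for 2 of 20, against 57.9%. An unadjusted p under 0.05 was reached by 6 members, Pcdhb7, Pcdhb8, Pcdhb17, Pcdhb18, Pcdhb19 and Pcdhb20, against 11.3% of probes. Every miR-34a array lay above every miR-21 array for 7 members, those 6 and Pcdhb16, against 6.16% of probes, and below for 1, Pcdhb2, against 10.9%. Pcdhb19 differed by 0.98 ± 0.27 (SE) and Pcdhb20 by 0.90 ± 0.25, each with an adjusted p by limma of 0.21 to 0.22.

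Between miR-21 and miR-324 cells the median difference of the 20 was -0.40, against 0.05 over all named probes, and 0 members were called by limma, against 2.46% of probes (481 genes). The difference was below 0 for 15 of 20, against 44.9%. An unadjusted p under 0.05 was reached by 6 members, Pcdhb7, Pcdhb8, Pcdhb15, Pcdhb16, Pcdhb17 and Pcdhb20, against 14.7%. Every miR-21 array lay below every miR-324 array for 7 members, Pcdhb1, Pcdhb7, Pcdhb8, Pcdhb15, Pcdhb16, Pcdhb17 and Pcdhb18, against 8.4% of probes, and above for 0, against 13.0%. Pcdhb7 had 3.36, 3.46 and 3.06 in miR-21 cells, against 4.05, 4.11 and 3.88 in miR-324 cells, a difference of -0.72 ± 0.20 (SE, adjusted p by limma 0.10). Pcdhb16 differed by -0.97 ± 0.29 and Pcdhb15 by -0.98 ± 0.31, with adjusted p-values by limma of 0.12 and 0.15. Without miR-324 1 Pcdhb15 was called, at -1.30 with an adjusted p by limma of 0.047, beside 402 of all 19572 probes. None of the other fits that left out 1 array called a member.

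Between miR-34a and miR-324 cells the median difference of the 20 was -0.09, against -0.03 over all named probes, and 0 were called by limma, against 0.0% of probes. The difference was below 0 for 11 of 20, against 52.7%. Pcdhb11 at 0.74 ± 0.32 (SE) and Pcdhb19 at 0.70 ± 0.27 had an unadjusted p under 0.05, as did 13.0% of probes. Every miR-34a array lay above every miR-324 array for 3 members, Pcdhb6, Pcdhb11 and Pcdhb19, against 7.81% of probes, and below for 3, Pcdhb1, Pcdhb2 and Pcdhb7, against 9.25%.

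Neuron-rich and neuron-poor arrays were compared by the slope of each gene on the pan-neuronal level of the array, fitted within groups. A slope of 1 means that the gene's log2 signal moves by as much as that level does. The Pcdhb genes had slopes of either sign, 10 of 20 below 0, against 61.2% of all named probes. Their median slope was 0.00, against -0.04 over all probes. Without miR-34a 3 and miR-324 1 it was 0.21, against 0.05 over all probes, and with a fixed block for the label suffix it was -0.11, against -0.03. Of the 20, 1 was called by limma, against 12.1% of probes (2372 genes), and that 1 rose with the level, as did 6.74% of probes. An unadjusted p under 0.05 was reached by 2 members, Pcdhb9 and Pcdhb17, against 25.6%. In the same fit 26 of the 28 pan-neuronal genes, which made the level, rose with it.

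Pcdhb9 was the gene called. Its log2 signal was 6.07, 5.48 and 6.64 in miR-21 cells, 6.86, 6.66 and 4.84 in miR-34a cells, 5.94, 6.02 and 6.80 in miR-324 cells, and 6.30, 6.86 and 6.54 in scramble cells. The lowest value, 4.84, is that of miR-34a 3, the array with the lowest pan-neuronal level. The slope was 0.40 ± 0.098 (SE, 95% interval 0.18 to 0.61), with an adjusted p by limma of 0.019. Without miR-34a 3 it was 0.21, with an adjusted p by limma of 0.64, and the call was also lost without miR-34a 1 (0.076) or miR-34a 2 (0.059). Against scramble Pcdhb9 had differences of -0.50 after miR-21, -0.45 after miR-34a and -0.31 after miR-324, each ± 0.48 (SE).

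Pcdhb17 and Pcdhb20 had the next smallest p-values, with slopes below 0. The slope of Pcdhb17 was -0.16 ± 0.068 (SE, adjusted p by limma 0.16). Its highest values, 7.74 and 7.36, were those of miR-34a 3 and miR-324 1. The slope of Pcdhb20 was -0.11 ± 0.072 (SE, adjusted p by limma 0.37). Without those 2 arrays together the slopes were 0.41 for Pcdhb17, 0.19 for Pcdhb20 and 0.33 for Pcdhb9, none of them called, so the negative signs of Pcdhb17 and Pcdhb20 rest on the arrays with the lowest pan-neuronal level.

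In miR-34a 3 the members had a median difference of -0.01 from the mean of the other 2 arrays of its group, against 0.14 over all named probes, and 11 of 20 were lower, against 40.6% of probes. Pcdhb9 alone was lower by at least 1, at -1.92, against 9.76% of all named probes. Pcdhb18 and Pcdhb4 were higher, by 1.02 and 0.95. In miR-324 1 the median difference of the members was 0.08, against 0.12 over all probes, and 8 of 20 were lower, against 41.0%. Pcdhb14 alone was lower by at least 1, at -1.55, against 5.24% of probes, and Pcdhb2 was higher by 1.04. No member was lower by at least 1 in both arrays, against 3.3% of probes, and none was higher by at least 1 in both, against 2.08%. Pcdhb14, Pcdhb18 and Pcdhb2 were singled out here after their values were seen.

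**Figure D4:**
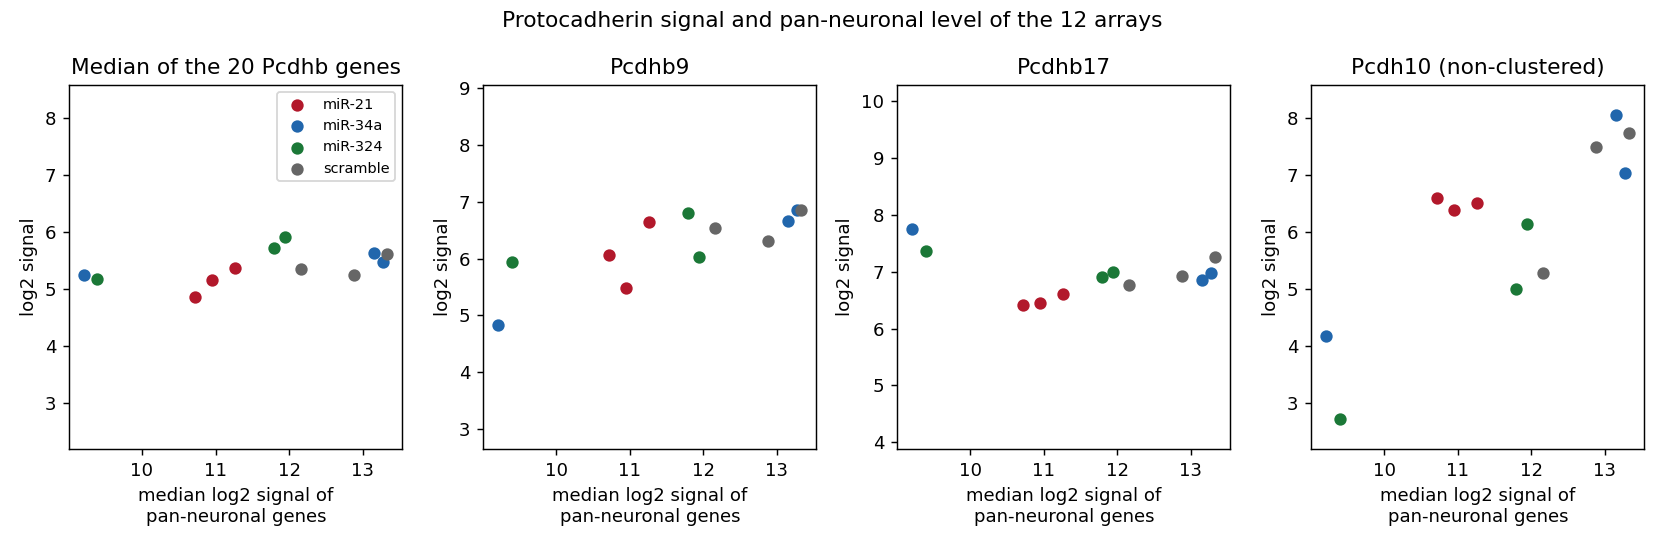
Log2 signal (vertical axis) against the pan-neuronal level of the array, the median log2 signal of 28 pan-neuronal genes (horizontal axis), for the median of the 20 Pcdhb genes, Pcdhb9, Pcdhb17 and the non-clustered Pcdh10. Points are the 12 arrays coloured by group, and the panels span the same number of log2 units. The 2 leftmost points are miR-34a 3 and miR-324 1, where Pcdhb9 had 4.84 and 5.94, Pcdhb17 had 7.74 and 7.36, and Pcdh10 had 4.18 and 2.72. A median over 20 genes varies less than a single gene, so the leftmost panel is not to be set against the others.

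Non-clustered protocadherins, related adhesion proteins whose genes lie singly, were set beside the beta cluster, with 11 of 12 measured. Against scramble 0 of 11 were called for each miRNA, with median differences of -0.02 for miR-21, -0.18 for miR-34a and 0.17 for miR-324. Over all probes the medians were 0.13, 0.04 and 0.09, with 204, 0 and 0 called. On the pan-neuronal level 3 of 11 rose and 0 fell, against 1320 and 1052 of 19572 probes. Pcdh10, which acts in axon growth and cell adhesion, had 6.59, 6.38 and 6.51 in miR-21 cells, 7.03, 8.05 and 4.18 in miR-34a cells, 2.72, 6.15 and 5.00 in miR-324 cells, and 7.50, 7.74 and 5.28 in scramble cells. Its 2 lowest values are those of miR-324 1 and miR-34a 3.

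The slope of Pcdh10 was 0.97 ± 0.13 (SE), with an adjusted p by limma of 0.00037, and it was called in 12 of 12 fits that left out 1 array. The call was lost with a fixed block for the label suffix. Pcdh19, mutated in a human epilepsy, had a slope of 0.62 ± 0.15 (SE, adjusted p by limma 0.015), and Pcdh9 one of 0.40 ± 0.11 (SE, adjusted p by limma 0.028). The call of Pcdh19 was lost without any 1 of the miR-34a arrays, where the adjusted p reached 0.66, and that of Pcdh9 without miR-34a 2 or miR-324 1, where it reached 0.12. Pcdh19 had 5.13 in miR-34a 3, against 8.25 and 8.22 in miR-34a 1 and 2, but 6.25 in miR-324 1, against 6.09 and 6.39 in miR-324 2 and 4.

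The genes of promoter choice and silencing at the clusters, among them the insulator protein Ctcf, cohesin subunits and DNA methyltransferases, were all measured, 14 of 14. Against scramble 0 were called for each miRNA, with median differences of 0.34 for miR-21, 0.24 for miR-34a and 0.23 for miR-324. The medians over all probes were 0.13, 0.04 and 0.09. Dnmt1, which maintains DNA methylation through cell division, had 10.67, 10.69 and 10.64 in miR-21 cells, against 9.04, 9.19 and 9.21 in miR-324 cells. It was higher in miR-21 cells by 1.52 ± 0.27 (SE, adjusted p by limma 0.013), and the call was lost without any 1 of the miR-21 arrays or without miR-324 4, where the adjusted p reached 0.065. Cell cycle markers, 15 measured, were at medians of 8.92 to 9.46 on miR-21 arrays, against 6.17 to 6.80 on miR-324 arrays, and their part in the Dnmt1 difference was not tested. On the pan-neuronal level 1 of 14 fell, the cohesin loader Nipbl, with a slope of -0.26 ± 0.071 (SE, adjusted p by limma 0.028). That call was lost without any 1 of the miR-34a arrays. Of all 19572 probes 1052 fell.

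Partners that bind, cleave or signal for clustered protocadherins had 17 of 20 genes measured. Against scramble 0 were called for each miRNA, with median differences of 0.04 for miR-21, 0.05 for miR-34a and -0.15 for miR-324. The medians over all probes were 0.13, 0.04 and 0.09. On the pan-neuronal level 5 of 17 rose, Ret, Cyfip2, Wasf1, Nlgn2 and Abi2, and 1 fell, Adam10. Of all 19572 probes 1320 rose and 1052 fell. The calls of Wasf1 and Nlgn2 were lost without miR-34a 3, and that of Abi2 (adjusted p by limma 0.049) in 10 of 12 fits that left out 1 array. Ret, a receptor kinase that sensory neurons use for trophic factors and that can associate with protocadherins, had a slope of 1.32 ± 0.074 (SE, adjusted p by limma 8.94e-07). Cyfip2, a subunit of the actin-regulating WAVE complex, had one of 0.91 ± 0.067 (SE, adjusted p by limma 3.05e-06). Both were called in 12 of 12 fits that left out 1 array. Without miR-34a 3 and miR-324 1 together neither they nor Pcdh10 were called. Adam10, the protease that cleaves protocadherins at the cell surface, had a slope of -0.38 ± 0.11 (SE, adjusted p by limma 0.046), a call that was lost in 10 of 12 fits that left out 1 array.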

How the data were processed

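Total RNA of 12 samples was measured on arrays. Per the submitters' processing notes, Transcriptome Analysis Console 4.0 and RMA were used, and the authors deposited the result as log2 signal per probe. RMA aims at a common distribution for all arrays, so a change in total signal is not seen. The table has 22206 probes, of which 19572 have 1 gene symbol in the platform annotation and 2634 are unnamed here. Array medians lay between 5.91 and 6.06, so small shifts between arrays remained. Quantile normalization again moved the median difference over all named probes in miR-21 against scramble from 0.13 to 0.03. Arrays have no read depth, so their number limits the precision.

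In R 4.3.3, limma 3.58.1 (lmFit and eBayes) fitted a mean for each group over the 12 arrays, and p-values were adjusted over 19572 probes, two-sided, threshold 0.05. Every adjusted p is from this fit unless another setting is named. The slope fit adds the array median of the pan-neuronal list to the group term. Named were the 3 brightest members, every member called, and the 3 smallest p-values per comparison with scramble and for the slope, and up to 4 called genes of each related list. Nlgn2, Abi2 and the members so marked were added after their values were seen. Scripts were tested on simulated data.

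Scramble 3 is named from its array number, since its label repeats number 1, and miR-324 arrays are numbered 1, 2 and 4. Members and gene lists were chosen with earlier results of these data known. Alternatives comprised normalization, centring, a filter on dim probes, a variance trend, array weights, fewer groups, blocks for label number or suffix, cell type levels, and leaving out each array. Sequences of chromosome 18 are not printed.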

Additional observations from a re-analysis of the deposited data

How the results depend on the processing

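For miR-34a and miR-324 against scramble no setting called a member. The median difference of the 20 Pcdhb genes from scramble was below 0 for miR-21 under every setting tried, between -0.45 (quantile normalization again) and -0.15 (the suffix as a fixed block), and -0.40 to -0.21 without single arrays. For miR-34a it ran from 0.05 (suffix A) to 0.16, or -0.10 over the 7 members that are brighter than the median probe, and for miR-324 from 0.06 to 0.25 (the suffix as a fixed block, or the pan-neuronal covariate). Without single arrays these were 0.08 to 0.23 and 0.06 to 0.18. All these moves are under 0.266, the SD within groups of the median of the 20 members on each array. That SD is not the error of these differences. It is larger than the miR-34a and miR-324 medians themselves, so even a change of sign can fall under it. The count of members called in miR-21 against scramble became 1, Pcdhb20 each time, with array weights (-1.05), only the groups compared (-1.02), a fixed block for the suffix (-1.47) and the pan-neuronal level as a covariate (-1.23), while the calls over all genes were 2390, 906, 684 and 373. The fixed block compares miR-21 with scramble only indirectly, as given above. The member count became 2 with array weights in miR-34a against miR-21, miR-21 against miR-324 and miR-34a against miR-324. The calls over all probes there were 2148, 1788 and 2806 of 19572. In miR-34a against miR-21 with the suffix as a fixed block the member count was 1, and 1004 probes were called. Leaving out single arrays the member count ranged from 0 to 1 in miR-21 against miR-324. It was 1 without miR-324 1, where 402 probes were called.

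The members called on the pan-neuronal level became 0 with array weights, the label number as a replicate block, the suffix as a fixed block, the fibroblast, satellite glia, endothelial, macrophage or cell cycle level in place of the pan-neuronal one, and without miR-34a 3 and miR-324 1 together. Leaving out single arrays they ranged from 0 to 1. The slope of Pcdhb9 was 0.40 with array weights, 0.49 and 0.58 with these blocks, and 0.44, 0.60, 0.34 and 0.38 on the fibroblast, satellite glia, macrophage and cell cycle levels. It was -0.33 on the endothelial level, which was highest in the 2 arrays lowest in pan-neuronal genes, so that a slope of opposite sign there runs the same way. The same holds for the endothelial slopes of Pcdhb4 (0.15), Pcdhb17 (0.15) and Pcdhb20 (0.084). Slopes that changed sign were those of Pcdhb4 (0.23 without both arrays, -0.20 to 0.13 without single arrays), Pcdhb17 (0.41 without both) and Pcdhb20 (0.19 without both, 0.050 with no group term, 0.015 on the macrophage and 0.031 on the cell cycle level).

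Other differences changed sign without reaching a call. These were Pcdhb4 in miR-21 (0.054 with array weights, -0.14 to 0.21 without single arrays) and in miR-34a (-0.14 with array weights, -0.053 with the replicate block, -0.0034 with the suffix as a random block, -0.23 within suffix A, -0.16 to 0.35 without single arrays). Pcdhb17 did so in miR-34a (-0.051 with array weights, -0.18 within suffix A, -0.068 to 0.38 without single arrays) and in miR-324 (-0.016 with array weights, -0.22 with the suffix as a fixed block, -0.18 with the pan-neuronal covariate, -0.033 to 0.24 without single arrays), and Pcdhb20 in miR-34a (-0.26 to 0.023 without single arrays). The cause was not tested.

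Of the related genes 0 were called against scramble. Summed over the 3 comparisons, the count was 20 with array weights, 2 with only the groups compared, 5 with a fixed suffix block and 2 with the pan-neuronal covariate. Of all 19572 probes, array weights called 2390 for miR-21, 0 for miR-34a and 2589 for miR-324. The other settings called 906, 684 and 373 probes for miR-21. On the pan-neuronal level 10 were called. The count was 5 with array weights, 3 with the replicate block, 3 with the suffix as a fixed block, 5 on the cell cycle level, 1 without miR-34a 3 and miR-324 1 together, and 4 to 15 without single arrays. The calls over all probes were 2372 in the main fit. In the same order they were 772, 701, 435, 1360 and 140, and 461 to 2813 without single arrays. Same-numbered arrays did not deviate together (correlations of -0.41 to 0.36 over 16 pairs, 3 of them over 0.1), so the label number was not taken as a pairing. Of 5 pairs with the same suffix 4 correlated over 0.1, those of suffix A at 0.31 to 0.36. These pairs share arrays and are not independent. Pairs without a shared suffix ran from -0.43 (miR-34a 2 with miR-324 1) to 0.48 (miR-34a 3 with miR-324 1). Deviations from the mean of a group sum to 0, which ties the correlations to each other. They therefore cannot tell whether suffix A stands apart. Macrophage markers had medians of 7.38 to 7.90 on the suffix A arrays and of 4.66 to 5.40 on the others. With the number as a block 0 members were called in any comparison, and 2 genes in all, in place of 204, for miR-21 against scramble.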
